A study of Drosophila melanogaster with 6 samples.

Results

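Heat shock proteins are molecular chaperones. Small heat shock proteins share an alpha-crystallin domain and hold unfolded clients in a state from which they can be refolded, Hsp70 proteins refold them in cycles driven by ATP, and J-domain proteins of the Hsp40 family deliver clients to Hsp70. In flies the stress-inducible genes of these families are switched on by the heat shock factor Hsf, while the cognate Hsc70 genes are transcribed without heat. Hsp26 and Hsp27 are in addition expressed during normal development, and their transcripts are also made in the ovary.

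The genes described were 10 named members of these families, chosen by name. They were the small heat shock genes Hsp26, Hsp27, Hsp67Ba and l(2)efl, the inducible Hsp70 gene Hsp68, the Hsp40 gene DnaJ-1, the regulator Hsf, and the cognates Hsc70-4, Hsc70-1 and Hsc70-2. A probe set was used only if the platform annotation gave it a single gene symbol, and a gene was read from its probe set of highest mean over the 6 arrays. By this rule 9 of the 10 members were measured, of 11983 genes in all. No probe set carried Hsp67Ba as its single symbol, and it was not analysed here. The 9 members had 13 probe sets, 3 each for l(2)efl and Hsc70-1 and 1 for every other member. The first 4 genes with Hsp68 and DnaJ-1 were taken as the stress-inducible class, of which 5 were measured, and the 3 cognates as the constitutive class. Hsf was placed in neither.

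The samples were whole embryos of Drosophila melanogaster. The clbn knock-out stock lacks Clbn (Caliban), the fly homologue of NEMF, which acts on stalled ribosomes in ribosome-associated quality control, and w1118 is the wild-type stock, with a mutation of the eye colour gene white. The labels give w1118 as the strain background of both, and say nothing of a backcross. Flies were kept at 25 °C without a stated heat shock, and each sample pooled embryos laid over 0 to 24 h, so that all stages of embryogenesis were mixed. In such bulk RNA, fewer cells of a type and less RNA per cell cannot be told apart. There were 3 arrays of the knock-out and 3 of w1118. Nothing in the labels says whether the samples of a genotype were separate collections, so p-values measure the spread between these samples, which may be technical.

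Clbn itself read 5.42, 5.27 and 5.14 log2 on the knock-out arrays, against 7.86, 8.25 and 8.44 on the w1118 arrays (log2 difference -2.91, adjusted p = 7.01e-05). Whether its probes lie inside the deleted part was not analysed here. Array medians lay between 6.17 and 6.36 log2. Knock-out array 1 had the largest gap between 3' and 5' probe sets of the control transcripts (actin, GAPDH and eIF-4a), 1.24 log2, against 0.73 and 0.67 on the other knock-out arrays and 0.72 to 0.78 on the w1118 arrays. Zygotic patterning genes marked the samples as embryos, with sna at 10.61 ± 0.19 log2 in the knock-out and 10.54 ± 0.10 in w1118 (SD, n = 3 each). Some other early zygotic genes were dimmer and varied more between arrays. Among them nullo read 6.80 ± 0.68 log2 in the knock-out and 6.45 ± 1.07 in w1118, and bnk 5.48 ± 0.51 and 5.09 ± 0.32.

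The comparison of knock-out with w1118 embryos showed lower readings of the small heat shock genes Hsp26 and Hsp27 on all 3 knock-out arrays, and no member passed the threshold of an adjusted p below 0.05 over all 18769 probe sets. By limma, 0 of the 9 members were called, against 4.51% of all genes. In the higher direction the background was 1.88% of genes, and in the lower direction 2.63%. Of all probe sets 3.56% were called. At an unadjusted p under 0.05 the members numbered 2, against 22.8% of all genes. For 3 members, Hsp26, Hsp27 and DnaJ-1, every knock-out array lay below every w1118 array, where 13.1% of all genes had such a gap in the lower direction. None of the 9 members had a gap in the higher direction, against 15.7% of all genes. The median log2 difference, knock-out minus w1118, was 0.06 over the 9 members and 0.02 over all genes. This fit did not pair the arrays. With same-numbered arrays of the genotypes paired as a block, 0 of the 9 members and 6.44% of all genes were called.

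**Figure D1:**
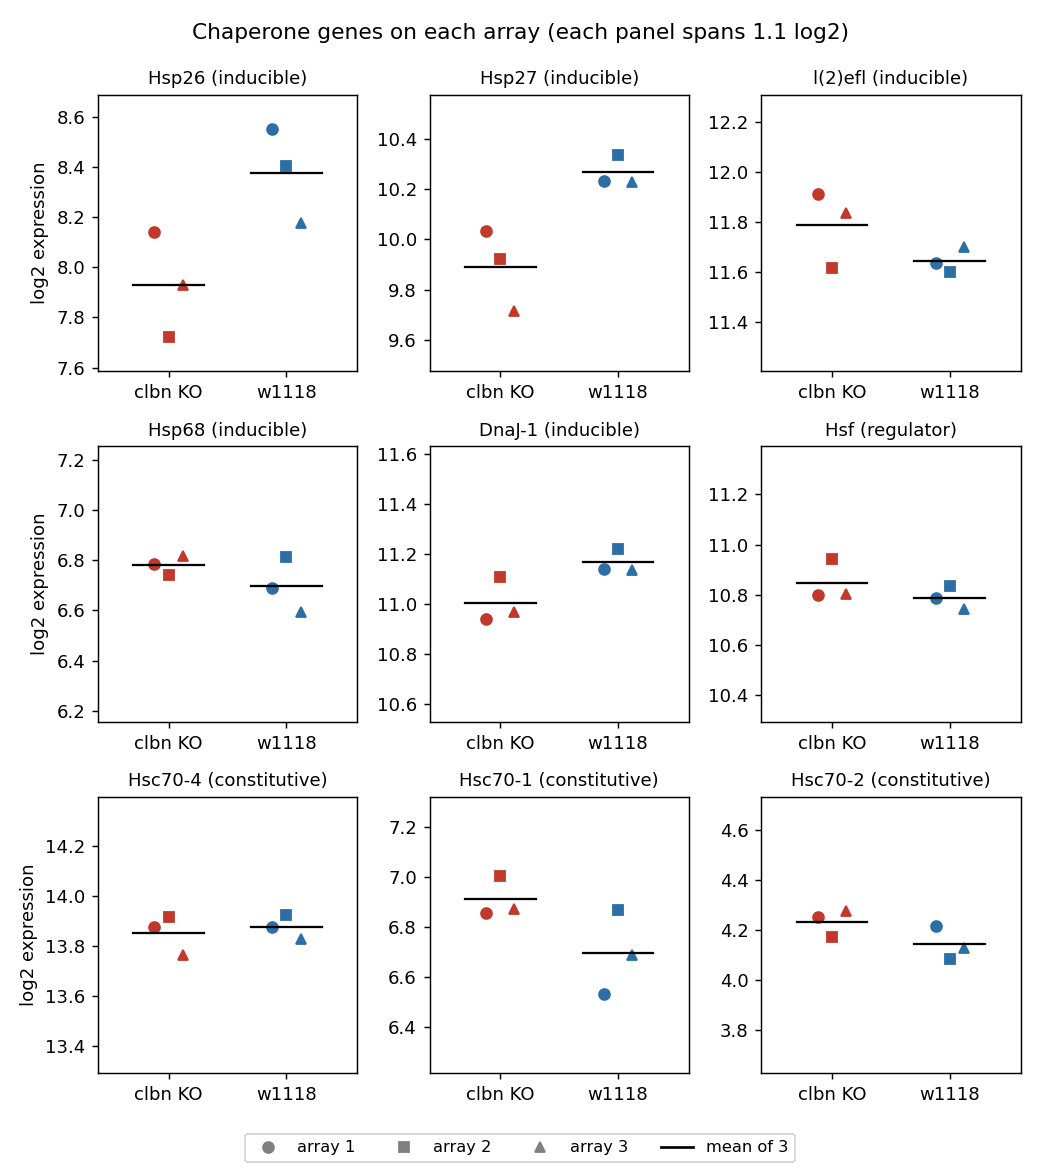
Log2 expression of the 9 measured members on each array, knock-out (red, left) and w1118 (blue, right), with the mean of 3 arrays as a line and 1 symbol shape per array number; every panel spans the same number of log2 units around its own middle. The knock-out points lie below all w1118 points for Hsp26, Hsp27 and DnaJ-1 and mix with them for the other 6 members.

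Hsp26, a small heat shock protein of the cytosol encoded on arm 3L, had the largest difference among the members. It read 8.14, 7.72 and 7.93 log2 on the knock-out arrays, against 8.55, 8.40 and 8.18 on the w1118 arrays. The highest knock-out value and the lowest w1118 value were separated by less than the spread within either genotype. The means were 7.93 ± 0.21 in the knock-out and 8.38 ± 0.19 in w1118 (SD, n = 3 each). Their log2 difference was -0.45 (SE 0.13, 95% interval -0.75 to -0.14), or 0.734-fold. Its adjusted p of 0.123 missed the threshold, and was 0.0608 with same-numbered arrays paired as a block. Of all genes, 8.21% differed by at least as much and 10.7% had an unadjusted p at most as small.

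Hsp27, a small heat shock protein found in the nucleus as well as the cytosol, also lies on 3L and was the member with the smallest p. It read 10.03, 9.92 and 9.71 log2 on the knock-out arrays, against 10.23, 10.34 and 10.23 on the w1118 arrays. The w1118 arrays lay close together and all 3 knock-out arrays stood below them. The means were 9.89 ± 0.16 in the knock-out and 10.27 ± 0.06 in w1118 (SD, n = 3 each). Their log2 difference was -0.38 (SE 0.10, 95% interval -0.60 to -0.15), or 0.77-fold, with an adjusted p of 0.0806 (0.0656 with same-numbered arrays paired as a block). Without knock-out array 1, the one with the large 3' to 5' gap, the difference was -0.45 and the adjusted p 0.048. That fit called 3.83% of all genes. With arrays weighted by quality, Hsp26 had a difference of -0.61 (adjusted p = 0.019) and Hsp27 one of -0.40 (0.0205), in a fit that called 10.1% of all genes. Over all its alternatives the adjusted p ranged from 0.019 to 0.357 for Hsp26 and from 0.0205 to 0.223 for Hsp27.

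The third small heat shock gene, l(2)efl, encodes an alpha-crystallin protein from arm 2R and did not share the direction of Hsp26 and Hsp27. Its brightest probe set read 11.91, 11.62 and 11.84 log2 on the knock-out arrays, against 11.63, 11.60 and 11.70 on the w1118 arrays. Knock-out array 2 lay among the w1118 values and the other 2 knock-out arrays above them. The log2 difference was 0.14 (SE 0.09, 95% interval -0.07 to 0.36, adjusted p = 0.463), and 0.08 without knock-out array 1 or 0.23 without knock-out array 2. The other probe sets of l(2)efl differed by 0.12 (adjusted p = 0.547) and 0.43 (adjusted p = 0.121). The last of these was dim, at 5.63 ± 0.16 log2 in the knock-out and 5.20 ± 0.22 in w1118 (SD, n = 3 each), and was the single one of the 3 whose arrays did not overlap. With the replicate number as a block its adjusted p was 0.0452, below the threshold, while the brightest probe set had 0.355.

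The inducible members outside the small heat shock family showed smaller differences. DnaJ-1, the J-domain partner of cytosolic Hsp70 on 3L, read 10.94, 11.11 and 10.97 log2 on the knock-out arrays, against 11.14, 11.22 and 11.14 on the w1118 arrays. The gap between the nearest arrays of the 2 genotypes was narrower than the spread within the knock-out. Its log2 difference was -0.16 (SE 0.08, 95% interval -0.34 to 0.02, adjusted p = 0.311). Hsp68, the heat-inducible Hsp70 relative on 3R, read 6.78, 6.74 and 6.82 log2 on the knock-out arrays, against 6.69, 6.81 and 6.60 on the w1118 arrays. The genotypes overlapped, with a difference of 0.08 (95% interval -0.10 to 0.27, adjusted p = 0.656), so an Hsp68 difference beyond 1.20-fold upward or 0.93-fold downward lay outside the interval.

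Hsf, the transcription factor that activates heat shock genes, read 10.80, 10.94 and 10.80 log2 on the knock-out arrays, against 10.78, 10.83 and 10.74 on the w1118 arrays. Its transcript level overlapped between genotypes, with a log2 difference of 0.06 (95% interval -0.11 to 0.23, adjusted p = 0.733). The transcript does not report the activity of the protein, which in flies is set largely after translation.

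Among the constitutive cognates, Hsc70-4, the main cytosolic Hsp70 of unstressed fly cells, read 13.88, 13.91 and 13.77 log2 on the knock-out arrays, against 13.88, 13.92 and 13.83 on the w1118 arrays. The readings overlapped almost fully, and the log2 difference of -0.02 had a 95% interval of -0.20 to 0.15 (adjusted p = 0.909), or 0.873-fold to 1.11-fold. The sign of its difference turned with median centring (0.05, adjusted p = 0.805) and without knock-out array 3 (0.02, adjusted p = 0.93).

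Hsc70-1, another cognate on 3L, had a difference of 0.22 upward and was called in no alternative. The difference ranged from 0.13 without w1118 array 1 to 0.33 with array weights (adjusted p = 0.0693). The brightest probe set of Hsc70-1 read 6.86, 7.005 and 6.87 log2 on the knock-out arrays, against 6.53, 6.87 and 6.69 on the w1118 arrays. A single w1118 array reached into the knock-out range. The log2 difference of 0.22 (SE 0.10, 95% interval -0.02 to 0.45) had an adjusted p of 0.3. The other probe sets of the gene gave 0.25 (adjusted p = 0.277) and 0.19 (0.448). Hsc70-2, the cognate on 3R, was dim, with 4.25, 4.17 and 4.27 log2 on the knock-out arrays, against 4.22, 4.09 and 4.13 on the w1118 arrays. All 6 values lay below the first quartiles of the arrays, 4.28 to 4.36 log2, where a value cannot be told from background, so its difference of 0.09 (adjusted p = 0.575) says little about the gene.

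**Figure D2:**
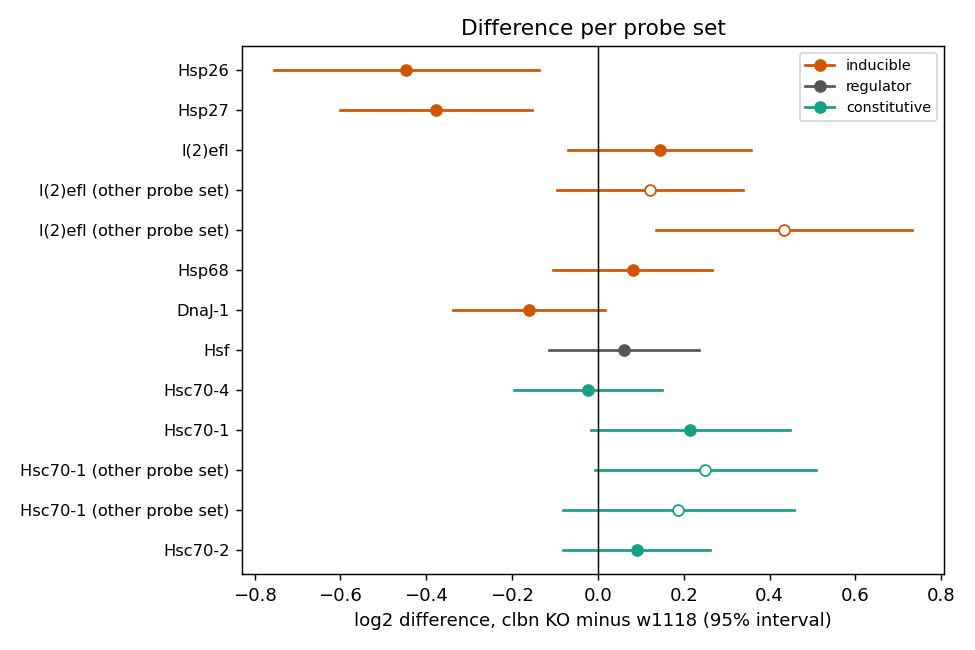
Log2 difference, knock-out minus w1118, with its 95% interval from the moderated fit for each of the 13 probe sets of the members; filled points are the brightest probe set of a gene and open points its other probe sets, coloured by class. The intervals of Hsp26 (-0.75 to -0.14) and Hsp27 (-0.60 to -0.15) lie below 0, and that of the dim l(2)efl probe set lies above it.

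The 2 classes were set side by side as the median log2 difference of their members. It was -0.16 over the 5 inducible members, which ranged from -0.45 to 0.14, and 0.09 over the 3 constitutive members, which ranged from -0.02 to 0.22, beside 0.02 over all genes. The constitutive median is the value of Hsc70-2, which cannot be told from background, and without it the other cognates had a median of 0.10. The inducible members did not move as a block, since 3 had values below 0 and 2 above. With each array centred on its median the class medians were -0.09 and 0.16. Without l(2)efl, which the choice of genes does not itself assign to a class, the inducible median was -0.27.

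Per array, each member was expressed as its deviation from its own mean over the 6 arrays, and the median deviation of a class was taken. The inducible median was -0.01, -0.10 and -0.12 log2 on the knock-out arrays, against 0.06, 0.13 and 0.02 on the w1118 arrays. The constitutive median was 0.05, 0.05 and 0.07 on the knock-out arrays, against 0.01, 0.06 and -0.06 on the w1118 arrays, and overlapped. Without Hsc70-2 it was 0.03, 0.13 and -0.01 on the knock-out arrays, against -0.13, 0.06 and -0.07 on the w1118 arrays, and overlapped as well. With Hsc70-4 as the only reference within each array, the deviation of Hsp27 was -0.06, -0.21 and -0.27 on the knock-out arrays, against 0.14, 0.20 and 0.19 on the w1118 arrays. The gap was narrower for Hsp26 (highest knock-out value -0.02, lowest w1118 value 0.06) and DnaJ-1 (-0.02 and 0.04). That of l(2)efl was 0.18, -0.15 and 0.22 on the knock-out arrays, against -0.09, -0.17 and 0.02 on the w1118 arrays, and overlapped. These are descriptions of the chosen genes, with no test.

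Genes of late embryonic muscle and cuticle read lower in the same knock-out samples. All 13 measured genes of that list had values below 0, with a median log2 difference of -0.35. By limma 2 were called, the myosin light chain gene Mlc2 and the paramyosin gene Prm, against 4.51% of all genes. At an unadjusted p under 0.05 there were 9 of the 13, against 22.8% of all genes. For 9 of the 13 every knock-out array lay below every w1118 array, as for 13.1% of all genes. The call of Mlc2 held in every alternative tried, while Prm (adjusted p = 0.0295) lost its call when knock-out array 2 or 3 was dropped (0.056 and 0.0541) and when w1118 array 1, 2 or 3 was dropped (0.119, 0.0562 and 0.114). With the replicate block 4 were called, Tm2 (0.0458) and bt (0.0404) in addition, against 6.44% of all genes. The mean level of the list was 10.80 to 11.06 log2 on the knock-out arrays and 11.29 to 11.45 on the w1118 arrays. As a mean deviation it was -0.36, -0.10 and -0.11 on the knock-out arrays, against 0.15, 0.13 and 0.29 on the w1118 arrays. The chaperone genes did not share one order over the arrays. Knock-out array 1, lowest in late markers, was the highest knock-out array for Hsp26, Hsp27 and l(2)efl and the lowest for DnaJ-1 and stv. On w1118 array 3, highest in late markers, Hsp26, Hsp27 and DnaJ-1 had their lowest w1118 values and l(2)efl and stv their highest. Hsp27 (10.23 log2) and DnaJ-1 (11.14) read nearly the same on w1118 array 1. The 3 other small heat shock genes had a mean deviation of -0.21, -0.09 and -0.12 log2 on the knock-out arrays, against 0.14, -0.035 and 0.32 on the w1118 arrays. The mean was lowest and highest on the same arrays as the late markers, but not every gene was. Only CG7409 was lowest on knock-out array 1 (6.95 log2), while CG4461 (5.38) and CG13133 (5.13) were lowest on knock-out array 3. CG7409 (8.11) and CG13133 (5.82) were highest on w1118 array 3, and CG4461 (5.66) on w1118 array 1. The part of embryo age or RNA quality in the chaperone values was not tested.

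Other stage lists overlapped between the genotypes. The 7 measured maternal RNA genes had a mean level of 9.19 to 9.50 log2 in the knock-out and 9.05 to 9.40 in w1118. Their median difference was 0.01. By limma 0 were called and 2 had an unadjusted p under 0.05, against 4.51% and 22.8% of all genes. The 10 early zygotic genes had a mean level of 7.69 to 8.51 log2 in the knock-out and 7.84 to 8.46 in w1118, a median difference of 0.17, and 0 calls (1 at an unadjusted p under 0.05). That 1 was zen, a dorsal patterning gene, which had a difference of -1.09 and non-overlapping arrays (adjusted p = 0.0677, and 0.0128 with the replicate block). The 9 genes of adult tissues, yolk protein and chorion genes, had a mean level of 5.04 to 5.23 log2 in the knock-out and 5.11 to 5.24 in w1118, with 0 calls and 0 at an unadjusted p under 0.05.

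**Figure D3:**
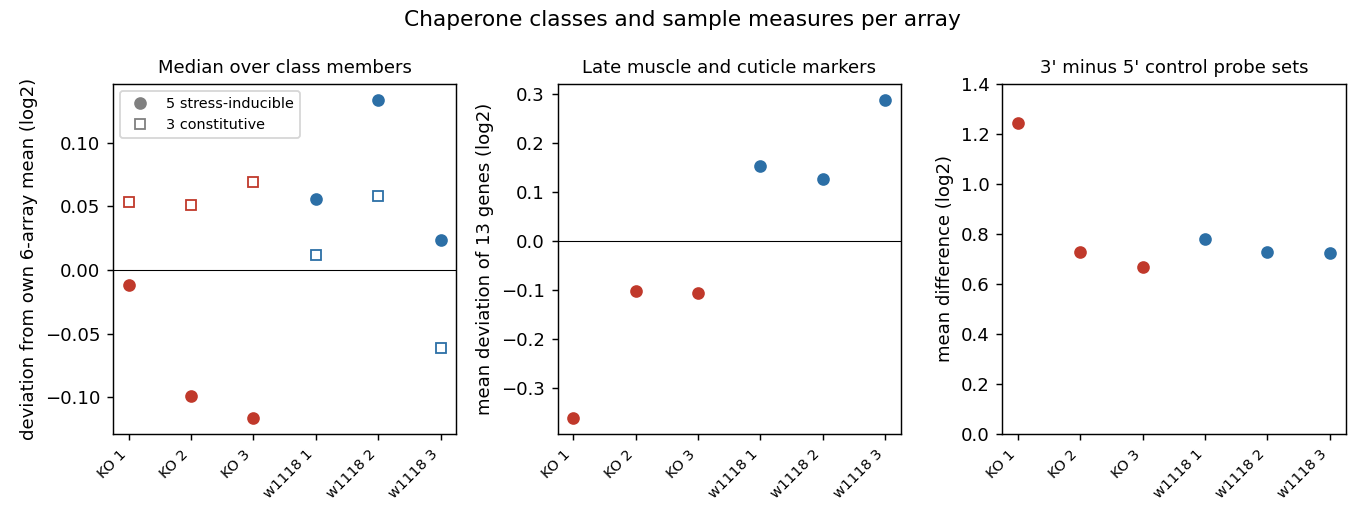
Values per array, knock-out arrays (red) left of w1118 arrays (blue): the median deviation of the 5 inducible (filled circles) and 3 constitutive members (open squares), the mean deviation of the 13 late muscle and cuticle genes, and the 3' minus 5' difference of control probe sets, all in log2. The inducible median and the late markers are lower on every knock-out array than on every w1118 array, and knock-out array 1 stands apart in the control probe sets at 1.24.

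The rest of the cytosolic chaperone network was read from 5 lists of 52 genes, of which 39 were measured. Another 9, Hsp22, the 6 heat-inducible Hsp70 genes and the pair HIP and HIP-R, had only probe sets listed with several genes, and 4, Hsp23, Hsp67Bc, CG14207 and Hsp83, had none with a single symbol. These 13 were not analysed here. By limma 0 of the 39 genes were called, against 4.51% of all genes, and their median difference was -0.01. At an unadjusted p under 0.05 there were 6, against 22.8% of all genes. With array weights 2 were called, in a fit that called 10.1% of all genes.

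The remaining alpha-crystallin genes, CG4461, CG7409 and CG13133, all had values below 0. Their median difference of -0.34 is the value of CG13133. CG13133 read 5.29, 5.50 and 5.13 log2 on the knock-out arrays, against 5.57, 5.55 and 5.82 on the w1118 arrays, a difference of -0.34 (adjusted p = 0.175). All 6 readings were in the dim part of the scale, below the array medians of 6.17 to 6.36 log2, and the genotypes did not overlap. CG4461, in the same cluster as Hsp26 and Hsp27, was also dim, at 5.48 log2 in the knock-out and 5.54 in w1118. It differed by -0.06 (adjusted p = 0.795). CG7409 was brighter and differed by -0.44 (adjusted p = 0.326, and 0.116 with the replicate block), and its arrays overlapped.

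In the Hsp70 system, 4 of 12 genes were measured, with a median difference of 0.05. The gene stv (starvin), which encodes a BAG-domain nucleotide exchange factor for Hsp70 and Hsc70, read 8.02, 8.21 and 8.21 log2 on the knock-out arrays, against 8.50, 8.46 and 8.61 on the w1118 arrays. Its arrays did not overlap, and its difference of -0.37 (SE 0.09) had an adjusted p of 0.061, or 0.0272 with array weights, with 0.0272 to 0.215 as the range among the alternatives tried. The other 3, Hsp110, the Hsp70-binding ubiquitin ligase STUB1 and CG10973, overlapped between genotypes.

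The Hsp40, Hsp90 and TRiC lists had medians near 0. Among 10 other Hsp40 genes, with a median of 0.00, the J-domain gene CG2790 had the smallest p, with 8.88 ± 0.30 log2 in the knock-out and 8.48 ± 0.13 in w1118 (SD, n = 3 each, difference 0.40, adjusted p = 0.203). Without knock-out array 1 that difference was 0.23. Among 8 genes of the Hsp90 system, with a median of 0.02, it was unc-45, which encodes a myosin chaperone, with 8.18 ± 0.04 log2 in the knock-out and 8.36 ± 0.07 in w1118 (SD, n = 3 each, difference -0.18, adjusted p = 0.232). The 8 subunits of TRiC, the ring complex that folds actin and tubulin, lay between -0.12 for CCT6 and 0.04 for CCT8. Of the prefoldin subunits, which hand clients to TRiC, Pfdn6 read 10.66, 10.64 and 10.69 log2 on the knock-out arrays, against 10.97, 10.91 and 10.96 on the w1118 arrays. Both genotypes were tight and well separated for Pfdn6, with a difference of -0.28 (SE 0.07, adjusted p = 0.0671, and 0.0213 with array weights, within a range of 0.0213 to 0.244).

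**Figure D4:**
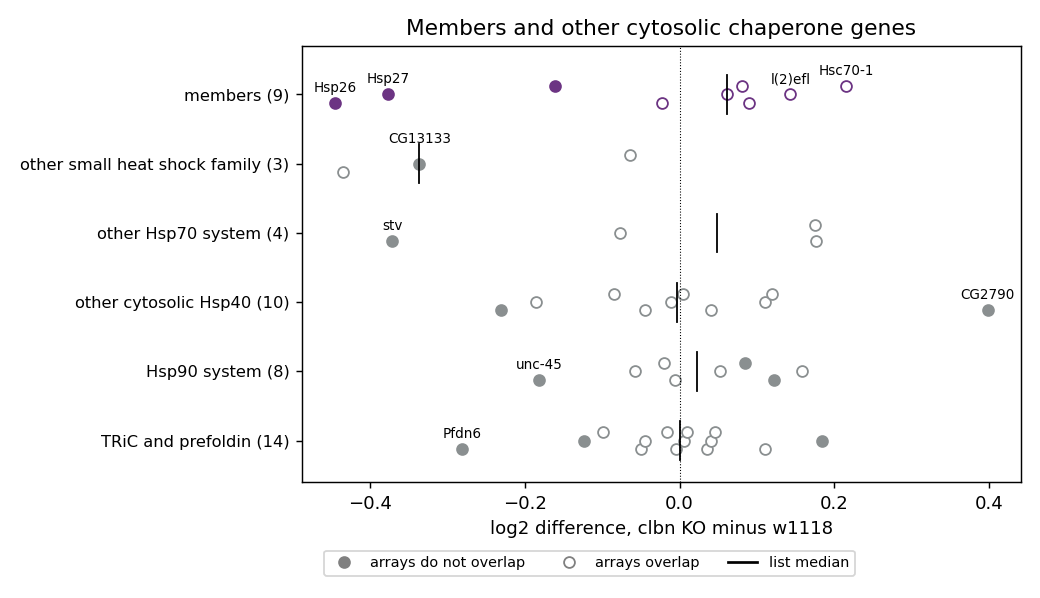
Log2 difference, knock-out minus w1118, of each measured gene among the members and the 5 other chaperone lists (number of genes in brackets); filled points are genes whose knock-out and w1118 arrays do not overlap, and the vertical bars are list medians. The 3 other small heat shock genes lie below 0, and their median of -0.34 is the value of the dim gene CG13133. The medians of the Hsp70, Hsp40, Hsp90 and TRiC lists lie within 0.05 of 0.

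Hsp26 and Hsp27 belong to the small heat shock cluster at 67B on arm 3L. In the gene order of the RefSeq table, Hsp67Ba, an antisense RNA and Hsp23 lie between them, and none of these 3 was measured. Of the 6 measured genes on each side of the pair, 2 of 12 were called, against 4.51% of all genes. Both were lower in the knock-out, the direction in which 2.63% of all genes were called. The median over the 12 was 0.02. CG4080, the next measured gene beyond Hsp27, read 7.51, 8.08 and 8.03 log2 on the knock-out arrays, against 8.80, 8.89 and 8.97 on the w1118 arrays, so it fell by 1.01 on the log2 scale (SE 0.15, adjusted p = 0.0132). This call was lost when w1118 array 1 or 3 was dropped (adjusted p = 0.0593 and 0.0592), with 0.00259 as the lowest value among its alternatives. CG4022, 3 measured genes farther along, fell by 1.39 (SE 0.09, adjusted p = 0.00023), with 7.98 ± 0.15 log2 in the knock-out and 9.37 ± 0.05 in w1118 (SD, n = 3 each). The call of CG4022 held in every alternative tried. The cap-binding gene eIF4E1 and the cuticle gene Cpr67B, which lie between them, differed by 0.03 and 0.04. These neighbours were chosen by gene order after the member values had been seen.

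**Figure D5:**
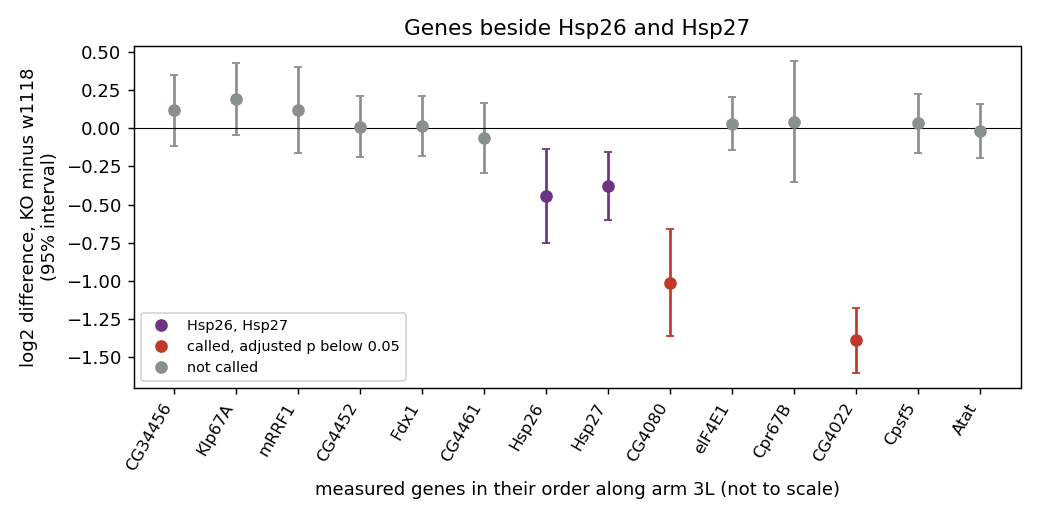
Log2 difference, knock-out minus w1118, with 95% intervals for Hsp26, Hsp27 and the 6 measured genes on each side, in gene order along 3L and not to scale. Hsp26, Hsp27, CG4080 and CG4022 have intervals below 0, and the intervals of the other 10 genes include 0.

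The 3 members with the widest range over the 6 arrays were Hsp26 (0.83 log2), Hsp27 (0.62) and Hsc70-1 (0.47). For each, the genes of most similar pattern were those with the smallest root mean square difference of their 6 deviations, among 7984 genes with a mean above 6 log2. The match covered the arrays of both genotypes. The direction and size of the differences below therefore follow from the choice, and their calls are no separate evidence on the members. For Hsp26 they were CG17270 (0.07 log2), CG12112 (0.10) and CG6171 (0.10), of which CG6171 was called (log2 difference -0.52, adjusted p = 0.0259). CG17270 (-0.51) had an adjusted p of 0.0511, and 0.0456 with the replicate block. For Hsp27 they were the cuticle gene TwdlT (0.04), the adenine phosphoribosyltransferase gene Aprt (0.04) and Mnat9 (0.04), of which Mnat9 was called (-0.42, adjusted p = 0.033). Both calls were lost with median centring (adjusted p = 0.0752 for CG6171 and 0.114 for Mnat9), and when knock-out array 2, knock-out array 3, w1118 array 1 or w1118 array 2 was dropped (0.069 to 0.126 for CG6171, 0.0775 to 0.126 for Mnat9). The call of Mnat9 was also lost without w1118 array 3 (0.114) and with quantile normalisation (0.096). TwdlT is itself 1 of the late cuticle markers above. For Hsc70-1 they were CG7878 (0.03), the replication protein gene RPA1 (0.04) and Elp2 (0.04), none of them called.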

How the data were processed

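Per the labels' protocols, biotinylated cRNA from total embryo RNA was hybridised to Affymetrix arrays. The authors' deposited values are read as log2 expression per probe set from their range, 2.84 to 14.52; the submitters' processing notes name affy. How background was corrected and arrays were normalised is not stated by any label or header, and no further normalisation was applied. Detection calls were not used, and precision is limited by the 3 arrays of each genotype. Of 18769 probe sets, besides 183 controls, 13647 had 1 gene symbol, 402 several and 4720 were not listed in the platform annotation; 13544 of the first were matched to RefSeq (Release 6 plus ISO1 MT), used for symbols, arms and gene order.

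Differences, knock-out minus w1118, were fitted with limma 3.58.1 in R 4.3.3 (lmFit, eBayes, no covariate), with Benjamini-Hochberg adjustment over all probe sets; the script was tested on simulated data. Alternatives were quantile normalisation, median centring, a filter on dim probe sets, array weights, other probe sets of a gene, each array left out, and the replicate number as a block. Same-numbered arrays of the 2 genotypes deviated together (r = 0.25, 0.23 and 0.39 over probe sets), and the labels name no shared day or batch. The main fit did not use this pairing, so its p-values leave it out. The fit with the replicate number as a block used it. Its p-values are given beside the main ones for some genes only, among them every described probe set whose call changed.

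Named genes are the members, Clbn, the gene of smallest p in each other chaperone list, and the 3 most similar genes of 3 members; others are named to complete a list or as neighbours. Members and lists were chosen with earlier results of these data known. Tables and plots used Python 3.11.15, pandas 2.3.3 and matplotlib 3.10.9.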

Additional observations from a re-analysis of the deposited data

How the results depend on the processing

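The 668 called probe sets became 1539 with array weights and 190 to 607 with an array left out (344 and 357 when knock-out array 3 or 2 was dropped, 256 and 190 when w1118 array 3 or 1 was dropped); the cause was not tested. The 0 called members became 2 with array weights (Hsp26 and Hsp27) and 0 to 1 with an array left out (Hsp27 without knock-out array 1), and the 0 called genes of the other lists became 2 with array weights (stv and Pfdn6). With array weights 10.1% of all genes were called, and without knock-out array 1 the share was 3.83%. The inducible median ranged from -0.21 to -0.13 with an array left out, and was -0.088 with median centring, which adds 0.07 to every difference, and -0.27 without l(2)efl, an alternative chosen after seeing the data. The constitutive median, 0.06 to 0.13 with an array left out, was 0.16 with median centring and 0.0395 with array weights. Of 102 alternative values for single members, 97 kept direction and side of the threshold, 3 passed it (Hsp26 and Hsp27, above) and 2 turned in sign, those of Hsc70-4 (0.0494 with median centring and 0.0202 without knock-out array 3, within -0.0545 to 0.0202 with an array left out). With the replicate block, 978 probe sets and 0 members, by their brightest probe sets, were called, with an adjusted p of 0.0608 for Hsp26 and 0.0656 for Hsp27, and 0 of the 111 probe sets described or counted here lost a call, while 5 gained one (the dim l(2)efl probe set, zen, Tm2, bt and CG17270). Without counts, depth is unknown, and signal below the first quartile limits Hsc70-2.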
